A study of Mus musculus with 3 samples.

Results

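The complement group described here consisted of 9 genes taken by symbol from the 31053 genes listed for each library. They were the *C1qa*, *C1qb* and *C1qc* chains, the components *C3* and *C4b*, the alternative-pathway proteins *Cfb* and *Cfp*, and the receptors *C3ar1* and *C5ar1*. All 9 were found. Single-cell RNA-seq had been carried out on day 5 ectopic masses that formed at subcutaneous Matrigel implants in CD-1 female mice of 6 to 8 weeks, with 1 library per condition. Matrigel-only mice received implants with no rhBMP2 and nothing by gavage. Vehicle mice received rhBMP2/Matrigel and corn oil/DMSO, and Palo mice received rhBMP2/Matrigel and palovarotene, a retinoic acid receptor gamma agonist, at 4 mg/kg. Thus Vehicle differed from Matrigel-only in rhBMP2 and in the gavage together, and those cannot be told apart. Cells of a mouse group were processed as 1 library, so no condition has a replicate, and intervals cover counting error only. Levels are CPM, the UMIs (counted mRNA molecules) of a gene per 1000000 UMIs of the cell class.

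Complement is a protein cascade that tags and clears microbes, debris and dying cells and that signals to leukocytes through small cleavage fragments. C1q, built from A, B and C chains, recognises targets and starts the classical pathway through the proteases C1r and C1s, which cleave C4. C3 is the component on which the classical, lectin and alternative pathways converge, while factor B and properdin form and stabilise the alternative convertase. C3a and C5a act through C3aR and C5aR1 on myeloid cells. Liver makes most plasma complement, but fibroblasts and macrophages are known local sources.

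The 3 chains of C1q lie side by side on the minus strand of chromosome 4 in mm10: *C1qb* at chr4:136880129-136886187, *C1qc* at chr4:136889804-136893065 and *C1qa* at chr4:136895917-136898803. Chromosome 17 holds *C4b* at chr17:34728380-34743882, *Cfb* at chr17:34856374-34862518 and *C3* at chr17:57203970-57228136. *Cfp* lies on chromosome X, *C3ar1* on chromosome 6 and *C5ar1* on chromosome 7. Reads of *C4b* could include those of its near-identical neighbour *C4a*, which was not analysed here. *Cfb* lies directly downstream of *C2* on the same strand. The promoters of *C3* and *C1qb* are shown as those of a stromal and a macrophage member of the group, of which only the first held any of the motifs searched. The sequences are from RefSeq on GRCm38.p6, minus strand, and are the 250 bases that end at the base before the start of transcription. They span chr17:57228137-57228386 for *C3* and chr4:136886201-136886450 for *C1qb*. Capitals mark matches to AGGTCA (a nuclear receptor half-site) or TTNNGNAA (a C/EBP-type site), both strands searched.
C3: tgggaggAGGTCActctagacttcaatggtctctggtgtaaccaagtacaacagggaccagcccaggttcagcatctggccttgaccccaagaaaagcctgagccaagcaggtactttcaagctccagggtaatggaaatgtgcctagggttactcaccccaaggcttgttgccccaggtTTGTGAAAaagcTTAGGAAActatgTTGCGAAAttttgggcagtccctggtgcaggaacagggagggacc
C1qb: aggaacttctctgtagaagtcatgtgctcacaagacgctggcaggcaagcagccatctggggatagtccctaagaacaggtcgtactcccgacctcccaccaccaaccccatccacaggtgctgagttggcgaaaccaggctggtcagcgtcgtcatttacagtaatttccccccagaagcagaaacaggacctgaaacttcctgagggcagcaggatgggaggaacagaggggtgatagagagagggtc

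The *C3* window held 3 non-overlapping TTNNGNAA matches, with first bases at -70, -58 and -45 relative to the start, and 1 AGGTCA match at -243. Of 32851 promoter windows of the same length, 36.8% held at least 1 TTNNGNAA match, 2.61% held 3 or more, and 14% held AGGTCA. Neither window matched TTCNNNGAA (a STAT-type site, 7.02% of windows) or ACGTG (a hypoxia-response core, 16.6% of windows). Of the 6 members with a promoter in the table, *C1qc* held 1 TTNNGNAA and 1 AGGTCA match, *C5ar1* held 1 TTNNGNAA match, and *Cfp* and *C3ar1* held no match to any of the 4 motifs. These are letters in a window and not sites shown to be used.

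The 3 libraries held 44252421 to 46901673 UMIs in 6065 to 9249 barcodes, of which 90.3% to 94.4% passed the cell filter. Stromal cells, in which *Col1a1*, *Col1a2*, *Col3a1*, *Dcn* and *Lum* made at least 1% of UMIs, numbered 2085 in Matrigel-only, 1373 for Vehicle and 1184 for Palo. Macrophages, below that limit and with *Csf1r* or *Lyz2* detected, numbered 6437, 3581 and 5982. Median UMIs per cell were 9082, 17114 and 12955 in stromal cells and 3001, 3512 and 4218.5 in macrophages. All 12 stromal markers checked were in at least 10% of stromal cells, and all 12 macrophage markers in at least 10% of macrophages, in each library. That threshold alone does not separate the classes. Of the macrophage markers, 6, 7 and 7 also reached it in stromal cells, and 2, 4 and 2 stromal markers reached it in macrophages. The macrophage markers summed to 481, 257 and 389 CPM in stromal cells, against 10989, 12938 and 11778 CPM in macrophages. At least 2 of their UMIs were found in 32.7%, 44.8% and 46% of stromal cells. The macrophage class is wider than its name, since its rule also admits *Lyz2*-positive neutrophils and dendritic cells. Cells with at least 2 UMIs of a neutrophil list were 3.39% of it in Matrigel-only, 7.62% for Vehicle and 2.66% for Palo. These are not shares of neutrophils. In Matrigel-only 86.2% of such cells had a *C1qa* UMI, against 72.4% of the class, and *Ly6g*, which is on the list, had no UMI in Matrigel-only or Palo macrophages. In Vehicle macrophages *Ly6g* was detected. The neutrophil list summed there to 230 CPM, against 67.9 CPM in Matrigel-only and 43 CPM in Palo. A list of 8 basophil genes summed to 58.9 CPM in Vehicle macrophages, against 1.23 CPM in Matrigel-only and 2.38 CPM in Palo. Epithelial, erythroid and mural lists were highest there too, at 87.9, 661 and 15.2 CPM. They were at 1.92, 131 and 2.47 CPM in Matrigel-only and at 5.04, 214 and 2.27 CPM in Palo. At least 2 UMIs of the epithelial list were found in 5.22% of Vehicle macrophages. An adipocyte list was highest in Matrigel-only, at 132 CPM. Cells between 0.5% and 2% on the stromal limit were 1.08% of cells in Matrigel-only, 2.76% for Vehicle and 0.247% for Palo. Pairs of libraries shared 11 to 21 cell barcodes.

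The group split by cell class (the plot of CPM by library and class). C1q, properdin and both receptors were macrophage genes, *C3* was a stromal gene, and *C4b* and *Cfb* were found in both. Summed UMIs of the 6 library-by-class sums were compared by edgeR's quasi-likelihood test with the library as a block, so that the 3 conditions served as the replicates of each class. The spread, and so each SE, therefore includes any difference between the classes in their response to the conditions. Of the 9 genes, 8 passed an adjusted p of 0.05 against a background of 60.3% of 13869 genes tested. Since most genes differed between the classes, the size of each difference is given beside its call.

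**Figure D1:**
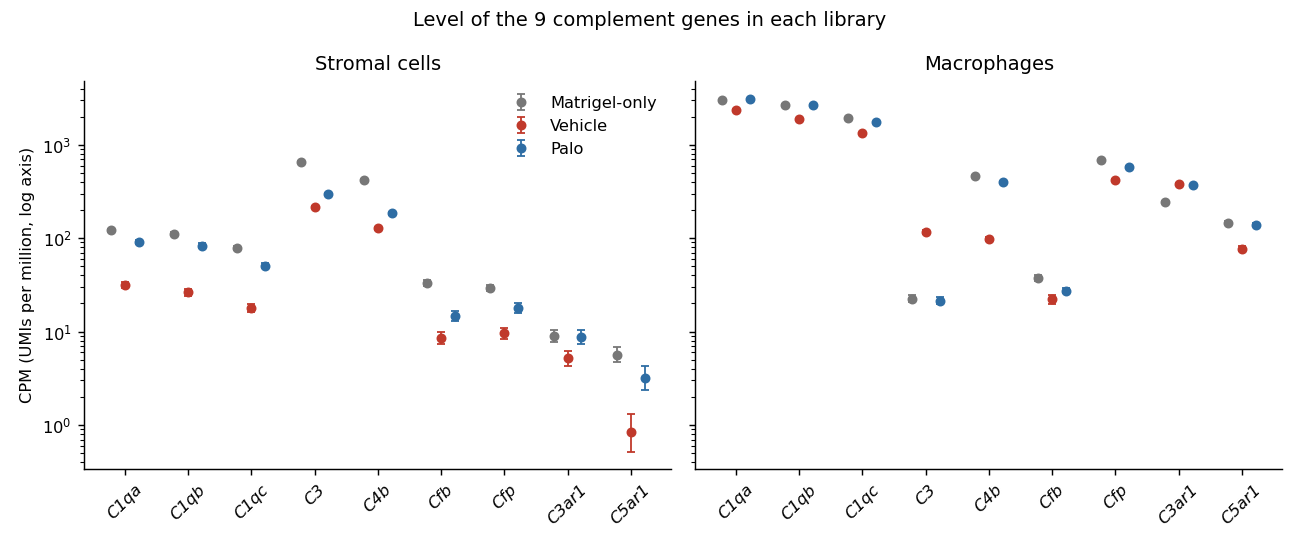
CPM of the 9 genes (log axis) in stromal cells and macrophages; each point is 1 library and bars are exact Poisson 95% intervals. C1q, *Cfp*, *C3ar1* and *C5ar1* sit far higher in macrophages, and *C3* sits higher in stromal cells, with the Vehicle point (116 CPM) standing above the other macrophage points.

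In macrophages *C1qa*, the A chain, was at 2984 CPM in Matrigel-only, 2368 CPM in Vehicle and 3093 CPM in Palo. *C1qb*, the B chain, was at 2693, 1871 and 2683 CPM, and *C1qc*, the C chain, at 1928, 1332 and 1744 CPM. All 3 chains were thus lowest in Vehicle. In stromal cells *C1qa* was at 121, 31.5 and 91.1 CPM, *C1qb* at 112, 26.3 and 83.5 CPM, and *C1qc* at 79.1, 17.8 and 50.9 CPM. No stromal level reached any macrophage level. The log2 difference, macrophage over stromal, was 5.40 ± 0.40 (SE) for *C1qa* (edgeR adjusted p = 0.000687), 5.34 ± 0.39 for *C1qb* (edgeR adjusted p = 0.00065) and 5.39 ± 0.39 for *C1qc* (edgeR adjusted p = 0.00065). Mixed cells were stromal cells with any UMI of *Csf1r*, *Ptprc*, *Adgre1*, *Cd68* or *Tyrobp*, and macrophages with the 5 stromal genes above 0.1% of UMIs. Without them the differences were 8.52, 8.14 and 8.30. The sizes thus depend on mixed cells, and leaving these out itself selects stromal cells that lack macrophage genes.

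The chains were found together in the same cells. Without thinning, all 3 chains had a UMI in 67% of macrophages in Matrigel-only, 55.1% for Vehicle and 67% for Palo. None had a UMI in 22.6%, 30.3% and 21.7%. At 1200 UMIs *C1qa* was found in 70.5%, 58.4% and 66.7% of macrophages. Pearson's r of *C1qa* with *C1qb* across macrophages thinned to 1200 UMIs was 0.81, 0.82 and 0.84 in the 3 libraries, with *C1qc* at 0.78, 0.77 and 0.80. These r are descriptions over 5839, 3300 and 5818 cells that share a library, and 598, 281 and 164 shallower macrophages were left out. Outside the members, the genes whose thinned UMIs followed summed C1q most closely in every library were *Apoe* (r of 0.62 to 0.73), *Selenop* (0.51 to 0.75), *Itm2b* (0.49 to 0.63), *Ctsb* (0.46 to 0.61) and *Ms4a7* (0.44 to 0.48). The genes at the opposite end were *S100a6* (-0.56 to -0.49), *S100a4* (-0.47 to -0.36), *Crip1* (-0.56 to -0.34), *Srgn* (-0.40 to -0.32) and *Cd52* (-0.61 to -0.31), among 1507 genes of at least 100 CPM whose median r was -0.01 in each library.

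C1q separated macrophage sets in all 3 libraries. Macrophages were given to the set whose genes they held most of, relative to the mean: an *Ms4a7* set (with *Stab1*, *Ccl12* and *Ccl8*), a *Hal* set (with *Ltc4s* and *Retnla*) or an *Mmp12* set (with *Ear2*, *Itgax* and *Dcstamp*). *C1qa* was at 4450 CPM in Matrigel-only, 3451 CPM in Vehicle and 5503 CPM in Palo in the *Ms4a7* set, and at 310, 512 and 480 CPM in the *Mmp12* set. The *Hal* set lay between them, at 2473, 1388 and 2184 CPM. Hence the *Ms4a7* set, which held 50.1%, 62.9% and 47.3% of macrophages, gave 74.6%, 87.5% and 76.5% of the *C1qa* UMIs of the class. Within that set 96.9%, 78.9% and 97.5% of cells had a *C1qa* UMI without thinning. The lower Vehicle level thus came with fewer positive cells in a set whose rule does not use C1q. Yet *Ms4a7* was among the genes that followed C1q most closely. It was at 490, 836 and 447 CPM in macrophages of Matrigel-only, Vehicle and Palo, so the set may not hold like cells in each library.

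Stromal C1q resembled macrophage C1q in its chain shares, as UMIs with no correction for length. Its chain shares in stromal cells were 38.8% *C1qa*, 35.8% *C1qb* and 25.4% *C1qc* of UMIs in Matrigel-only, against 39.2%, 35.4% and 25.4% in macrophages of that library. In Vehicle they were 41.7%, 34.8% and 23.6% against 42.5%, 33.6% and 23.9%, and in Palo 40.4%, 37% and 22.6% against 41.1%, 35.7% and 23.2%. The 10% of stromal cells richest in C1q held 94%, 87.7% and 91.3% of these UMIs, whereas the richest 10% of macrophages held 31.7%, 42.1% and 32%. Stromal C1q stood at 4.06% to 4.14% of the macrophage level in Matrigel-only, 1.33% to 1.40% in Vehicle and 2.92% to 3.11% in Palo. The 12 macrophage markers, none of them in the group, stood at a median of 4.18%, 1.59% and 2.90% (the plot of levels as a percent of the other class). Whether C1q in stromal cells was their own RNA or came from macrophages was not tested. Lymphocytes were the 140, 315 and 107 cells below the stromal limit with at least 2 UMIs of a list of 10 lymphocyte genes. They had a *C1qa* UMI in 10.9%, 6.70% and 7.36% of cells at 1200 UMIs. The share of stromal cells at that depth was 6.69%, 2.41% and 5.02%. Median UMIs of lymphocytes were 1599, 2121 and 2363. Of these lymphocytes, 51, 73 and 48 also met the macrophage rule and were counted in both. In Matrigel-only those 51 held 158 of the 159 *C1qa* UMIs of lymphocytes. The lymphocyte share there therefore does not give the level of cells that lack C1q.

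**Figure D2:**
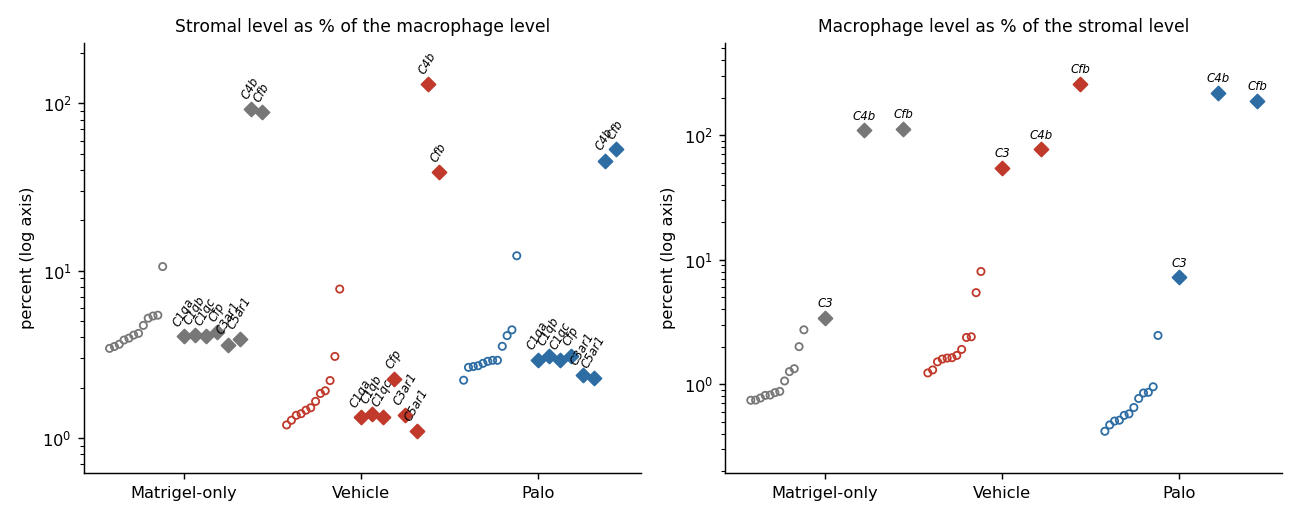
Level of each gene in 1 class as a percent of its level in the other (log axis), by library; open circles are 12 markers of the other class and diamonds are members. In stromal cells C1q, *Cfp* and the receptors lie among the macrophage markers, except *C5ar1* in Vehicle, which lies just under them, while *C4b* and *Cfb* lie far above; in macrophages *C3* lies above all 12 stromal markers in each library.

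*C3*, the central component, was the stromal member of the group. Stromal cells held 655 CPM in Matrigel-only (95% interval 644 to 667), 214 CPM in Vehicle (208 to 220) and 298 CPM in Palo (289 to 306). Macrophages held 22.4 CPM (20.5 to 24.5), 116 CPM (111 to 122) and 21.4 CPM (19.8 to 23.2). The order of the libraries was therefore not the same in the classes, since Vehicle was lowest in stromal cells and highest in macrophages. Macrophage over stromal, the log2 difference was -3.15 ± 0.90 (SE, edgeR adjusted p = 0.0358). This call was lost without Matrigel-only (-2.19, edgeR adjusted p = 0.0931) and without Palo (-2.82, edgeR adjusted p = 0.187). Without Vehicle the difference was -4.18 ± 0.29 (SE, edgeR adjusted p = 1.59e-05). Of all *C3* UMIs in cells that passed, macrophages gave 3.59% in Matrigel-only, 25.9% for Vehicle and 11.5% for Palo.

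*C3* in Vehicle macrophages stood above the level of stromal markers there. It stood at 54.3% of the stromal level in Vehicle, where the 12 stromal markers stood at 1.23% to 8.03%. The figures were 3.42% against 0.742% to 2.73% in Matrigel-only and 7.19% against 0.418% to 2.46% in Palo. At 1200 UMIs a *C3* UMI was found in 11.3% of Vehicle macrophages (95% interval 10.3 to 12.5), 2.52% of Matrigel-only macrophages and 2.68% of Palo macrophages, and in 1.46%, 0.516% and 0.234% of lymphocytes. Without thinning the macrophage shares were 22.9%, 5.93% and 7.04%. *C3* in lymphocytes was 7.57, 19.2 and 2.65 CPM in Matrigel-only, Vehicle and Palo. The 12 stromal markers summed to 304, 416 and 194 CPM in macrophages and to 457, 810 and 448 CPM in lymphocytes, of which *Thy1*, a gene that T cells also express, gave 252, 518 and 310 CPM. Without *Thy1*, a choice made after seeing the data, the other 11 summed to 299, 406 and 189 CPM in macrophages and to 204, 291 and 138 CPM in lymphocytes. Macrophages thus held more of both than the lymphocytes of their library. For *C3* it was 2.96-fold in Matrigel-only, 6.03-fold in Vehicle and 8.08-fold in Palo, and for these 11 markers 1.46-fold, 1.39-fold and 1.37-fold. Lymphocyte *C3* rested on 3, 19 and 1 UMIs, and in Matrigel-only all 3 lay in lymphocytes that also met the macrophage rule. Cells that met neither class rule held *C3* at 89.6, 70.9 and 18.4 CPM, from 37, 83 and 5 UMIs. In Matrigel-only that was above the macrophage level of 22.4 CPM, and in Vehicle it was below the 116 CPM of macrophages. How far stromal RNA entered macrophage *C3* was not tested.

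The higher Vehicle level of *C3* was found in each macrophage set. In the *Ms4a7* set *C3* was at 25.7 CPM in Matrigel-only, 152 CPM in Vehicle and 31.8 CPM in Palo. In the *Hal* set it was at 25, 51.3 and 20.1 CPM, and in the *Mmp12* set at 11.1, 54.2 and 6.84 CPM. The Vehicle interval lay above both others in each set. Cells with at least 2 UMIs of the neutrophil list held 56.4, 175 and 69.7 CPM, and these gave 14.3% of the *C3* UMIs of Vehicle macrophages. At least 2 UMIs of a dendritic cell list were found in 27.8%, 35% and 43% of macrophages, and of a B and plasmacytoid cell list in 30.7%, 35.5% and 31.1%. With cells holding at least 2 UMIs of any of 5 lists of other leukocytes left out, 3164, 1520 and 2342 macrophages remained. The epithelial, erythroid and mural lists were not among the 5, and their bearing on macrophage *C3* was not tested. The cells left out are not read as a count of other leukocytes. In those that remained the log2 ratio of *C3* was 2.11 for Vehicle over Matrigel-only and 2.14 for Vehicle over Palo. With macrophages in which the 5 stromal genes exceeded 0.1% of UMIs left out of each library, the log2 ratios of *C3* were 2.58 and 2.49.

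*C4b*, the component cleaved by C1s, was found in both classes. Stromal cells held 423 CPM in Matrigel-only, 128 CPM in Vehicle and 184 CPM in Palo. Macrophages held 460 CPM (451 to 469), 98.1 CPM (93.2 to 103) and 404 CPM (397 to 412). Vehicle was the lowest library in both classes. The classes did not separate, with a log2 difference of 0.38 ± 0.37 (SE, edgeR adjusted p = 0.419). Without Vehicle it was 0.78 (edgeR adjusted p = 0.0309), and without Palo it was -0.09 (edgeR adjusted p = 0.786). At 1200 UMIs a *C4b* UMI was found in 28.2% of Matrigel-only macrophages, 8.10% of Vehicle macrophages and 24.4% of Palo macrophages, and in 7.02%, 0.634% and 3.76% of lymphocytes. In Matrigel-only all 50 *C4b* UMIs of lymphocytes lay in the 51 that also met the macrophage rule.

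*C4b* differed between the macrophage sets. In the *Ms4a7* set *C4b* was at 629 CPM in Matrigel-only, 125 CPM in Vehicle and 474 CPM in Palo. It was at 471, 179 and 632 CPM in the *Hal* set and at 73.4, 28.1 and 118 CPM in the *Mmp12* set. Vehicle was lowest in each. The *Hal* set itself was 30% of macrophages in Matrigel-only, 9.63% for Vehicle and 26.2% for Palo. Palo held 73 macrophages with UMIs of both *Alox15* and *Prg4*, 1.22% of its class, whereas Vehicle held 3 and Matrigel-only 0. In those 73 cells *C4b* was at 5777 CPM (5523 to 6039) and was found in 98.6% of cells, giving 16.9% of the *C4b* UMIs of Palo macrophages. Their *C3* was 213 CPM and their *Cfp* 2902 CPM. This gate was chosen after seeing the data, and without these cells Palo macrophages held 340 CPM of *C4b* and the log2 ratio of Vehicle over Palo was -1.82.

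*Cfb*, factor B, the protease of the alternative convertase, was low throughout. Stromal cells held 33.4 CPM in Matrigel-only, 8.60 CPM in Vehicle and 14.7 CPM in Palo, and macrophages 37.8, 22.1 and 27.5 CPM. Macrophage values exceeded stromal values in each library, by little in Matrigel-only. The log2 difference was 0.89 ± 0.24 (SE, edgeR adjusted p = 0.0319). It was lost without Palo (0.80, edgeR adjusted p = 0.177), without the other leukocytes (0.47, edgeR adjusted p = 0.106) and with no library block (0.73, edgeR adjusted p = 0.24). *Cfp*, properdin, which stabilises that convertase, was at 679, 424 and 577 CPM in macrophages and at 29.4, 9.58 and 17.8 CPM in stromal cells. Its log2 difference was 5.09 ± 0.24 (SE, edgeR adjusted p = 0.000299), and 6.70 without the mixed cells. Unlike C1q, *Cfp* was not concentrated in the *Ms4a7* set, with 552, 388 and 442 CPM there against 752, 553 and 629 CPM in the *Mmp12* set and 899, 461 and 784 CPM in the *Hal* set.

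The receptors were macrophage genes. *C3ar1*, the receptor for C3a, was at 247 CPM in Matrigel-only (240 to 253), 378 CPM in Vehicle (368 to 388) and 367 CPM in Palo (360 to 374) in macrophages, and at 8.93, 5.17 and 8.78 CPM in stromal cells. *C5ar1*, the receptor for C5a, was at 146 CPM (141 to 151), 77.1 CPM (72.7 to 81.6) and 140 CPM (136 to 145) in macrophages, and at 5.69, 0.848 and 3.22 CPM in stromal cells. *C3ar1* was thus higher in both rhBMP2 libraries and *C5ar1* lower in Vehicle than in the other two. The log2 differences were 5.54 ± 0.32 (SE) for *C3ar1* (edgeR adjusted p = 0.000399) and 5.54 ± 0.38 for *C5ar1* (edgeR adjusted p = 0.000568). Without the mixed cells they were 8.29 and 8.23. Stromal values of *Cfp*, *C3ar1* and *C5ar1* were 1.10% to 4.33% of the macrophage values, within the range of the macrophage markers except *C5ar1* in Vehicle, which lay under it. Both receptors were higher in the *Ms4a7* set than in the *Mmp12* set in each library: *C3ar1* at 310 against 93.7 CPM in Matrigel-only, 465 against 185 CPM in Vehicle and 539 against 161 CPM in Palo, and *C5ar1* at 190 against 29.3, 97.5 against 23.9 and 211 against 44 CPM. Across macrophages the receptors did not follow each other, with r of 0.05, 0.12 and 0.08.

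To ask what rhBMP2 implants with vehicle did to the group, Vehicle was compared with Matrigel-only. In stromal cells 8 of the 9 genes were at least 2-fold lower in Vehicle, with a background of 16.4% of 10755 genes past 2-fold in either direction and 10.8% lower. The members' median log2 ratio was -1.94 against -0.04 over all genes tested. *C3* was 3.07-fold lower (log2 ratio -1.62, 95% interval -1.66 to -1.57), *C4b* 3.31-fold lower (-1.73, -1.79 to -1.67) and *Cfb* 3.88-fold lower (-1.96, -2.19 to -1.73). The other 5, the C1q chains, *Cfp* and *C5ar1*, stood in stromal cells at 1.10% to 4.33% of their macrophage levels. The 12 macrophage markers were lower there too, by a median log2 ratio of -1.07 with 7 of 12 at least 2-fold lower. Leaving out stromal cells with any UMI of *Csf1r*, *Ptprc*, *Adgre1*, *Cd68* or *Tyrobp* left 1457 cells in Matrigel-only and 891 in Vehicle. This brought *C1qb* to -0.63, no longer past 2-fold, and *C1qc* to -1.04, while *C3* was at -1.71, *C4b* at -1.65 and *Cfb* at -2.03. The count of members past 2-fold stayed within 1.5 times the 8 above.

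**Figure D3:**
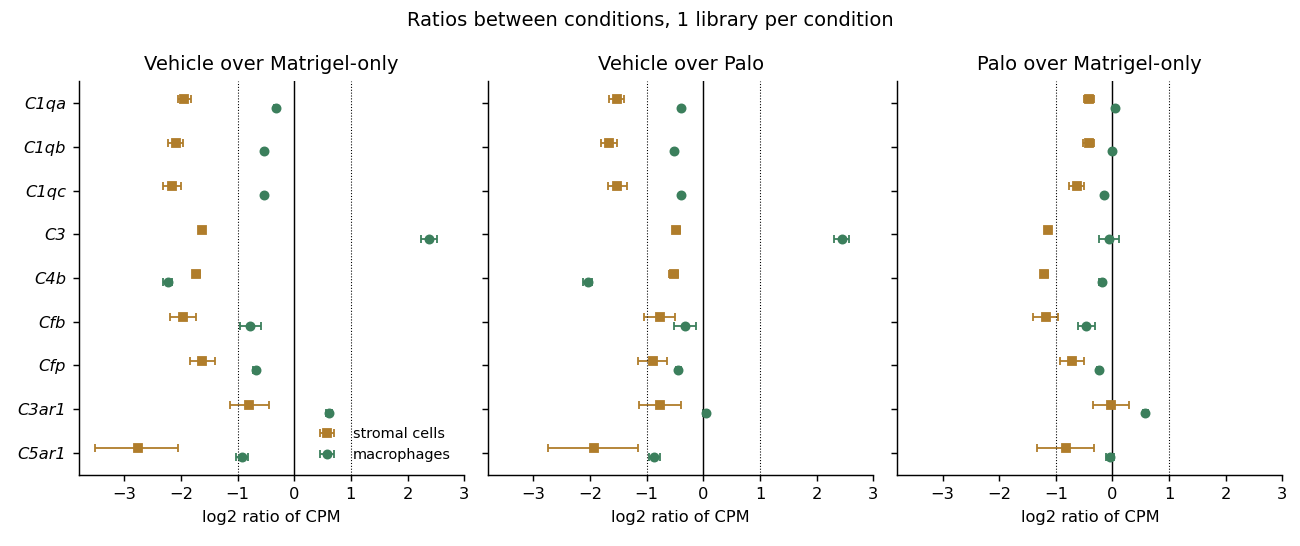
Log2 ratios of CPM between conditions for the 9 genes, squares for stromal cells and circles for macrophages, with 95% counting intervals; dotted lines mark 2-fold. *C3* is the gene that lies far to the right in macrophages in both comparisons with Vehicle, and *C4b* lies far to the left.

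Stromal *C3*, *C4b* and *Cfb* differed between stromal subsets. Cells with a *Pi16* UMI and none of *Acan* or *Col2a1* were 1152 in Matrigel-only, 116 for Vehicle and 368 for Palo, or 55.3%, 8.45% and 31.1% of stromal cells. *Pi16* marks a fibroblast progenitor state, and *Acan* and *Col2a1* encode cartilage matrix. In *Pi16* cells *C3* was at 924 CPM in Matrigel-only (905 to 943), 1556 CPM in Vehicle (1495 to 1619) and 754 CPM in Palo (728 to 781). *C4b* in those cells was at 605, 809 and 466 CPM, and *Cfb* at 43.6, 53.8 and 34 CPM. Within *Pi16* cells Vehicle was therefore the highest library for all 3 genes, although its *Cfb* interval (43 to 66.5) overlapped that of Matrigel-only. The subsets were set on unthinned UMIs, and median UMIs of stromal cells were 9082, 17114 and 12955. A single *Pi16*, *Acan* or *Col2a1* UMI was thus easier to detect in Vehicle, so the subsets may not hold like cells in each library.

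Stromal cells with none of the 3 transcripts held less, and here the Vehicle and Palo intervals overlapped. Their *C3* was at 397 CPM in Matrigel-only, 138 CPM in Vehicle (129 to 148) and 134 CPM in Palo (128 to 141), and their *C4b* at 249, 81.8 and 83.2 CPM. Cells with *Acan* or *Col2a1* were 871 in Vehicle, but 2 in Matrigel-only and 4 in Palo. They held 109 CPM of *C3*, 77.8 CPM of *C4b* and 5.13 CPM of *Cfb* in Vehicle. The 116 *Pi16* cells of Vehicle gave 48.8% of its stromal *C3* UMIs and 42.4% of its *C4b* UMIs, from 6.70% of its stromal UMIs. Weighting the subset levels by the Matrigel-only shares of stromal UMIs, an alternative chosen after seeing the data, gave log2 ratios of Vehicle over Matrigel-only of 0.35 for *C3*, 0.05 for *C4b* and -0.18 for *Cfb*. The direction of *C3* and *C4b* thus turned with the weights, and the members past 2-fold numbered 5 in place of 8, with *C3*, *C4b* and *Cfb* no longer among them. The weights were 0.0987% for cells with *Acan* or *Col2a1*, 49.1% for *Pi16* cells and 50.8% for the rest. Vehicle itself held 66%, 6.70% and 27.3%. The weighted Vehicle level therefore all but leaves out its *Acan* or *Col2a1* cells and rests largely on 116 *Pi16* cells.

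**Figure D4:**
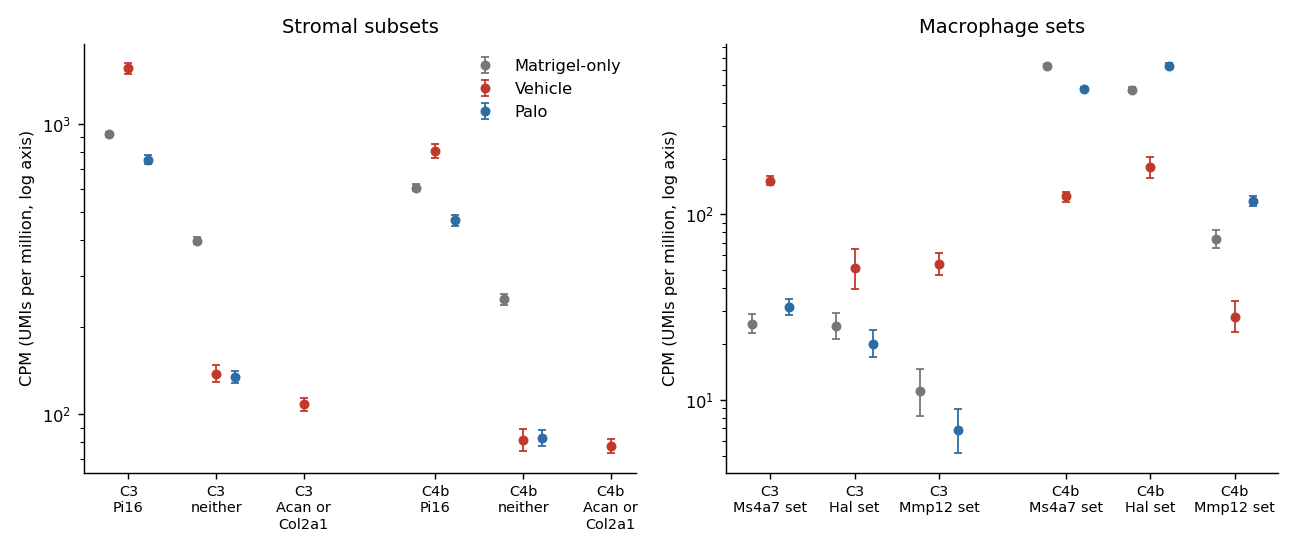
CPM (log axis) of *C3* and *C4b* in stromal subsets and macrophage sets by library, with Poisson 95% intervals; subsets of fewer than 50 cells are not drawn. Vehicle is highest in *Pi16* stromal cells for both genes, and in each macrophage set it is highest for *C3* and lowest for *C4b*.

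The same comparison in macrophages gave 2 of 9 members past 2-fold, with a background of 7.97% of 10009 genes, and a median log2 ratio of -0.53 against 0.01. *C3* was 5.18-fold higher in Vehicle (log2 ratio 2.37, 2.23 to 2.52) and *C4b* 4.69-fold lower (-2.23, -2.31 to -2.15). The C1q chains were lower by less than 2-fold, at -0.33, -0.53 and -0.53, as were *Cfp* at -0.68 and *Cfb* at -0.78. *C3ar1* was 1.53-fold higher (0.62, 0.56 to 0.67) and *C5ar1* 1.89-fold lower (-0.92, -1.02 to -0.82).

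To ask how palovarotene bore on the group under rhBMP2, Vehicle was compared with Palo. The Vehicle library enters this comparison as well as the last. In stromal cells 3 of the 8 members that reached 5 CPM were past 2-fold, the C1q chains, with a background of 13.4% of 10579 genes and a median log2 ratio of -0.83 against -0.01. Those chains stood in stromal cells at 1.33% to 3.11% of their macrophage levels, and without the mixed cells only *C1qc* remained past 2-fold (-1.05). *C3* was at -0.48 (-0.54 to -0.42), *C4b* at -0.52 (-0.60 to -0.45) and *Cfb* at -0.77 (-1.05 to -0.50), all lower in Vehicle. Weighted by the Matrigel-only shares of stromal subsets these became 0.93, 0.70 and 0.51. *C5ar1* did not reach 5 CPM in either library.

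In macrophages 2 of 9 members were past 2-fold between Vehicle and Palo, with a background of 8.65% of 9917 genes and a median of -0.39 against 0.19. *C3* was 5.42-fold higher in Vehicle (2.44, 2.30 to 2.57) and *C4b* 4.12-fold lower (-2.04, -2.12 to -1.97). *C5ar1* was at -0.87 (-0.96 to -0.77), and *C3ar1* was at 0.04 (-0.00 to 0.09), the smallest difference of the 9.

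Palo was lastly compared with Matrigel-only. Macrophages of these libraries had none of 9 members past 2-fold, with a background of 2.88% of 9719 genes, and a median of -0.07 against -0.16. *C3* was at -0.07 (-0.24 to 0.11), *C4b* at -0.19 (-0.23 to -0.15) and *C1qa* at 0.05 (0.04 to 0.07). *C3ar1* stood farthest from 0, at 0.57 (0.53 to 0.62). In stromal cells 3 of 9 were past 2-fold, with a background of 3.37% of 10466 genes and a median of -0.72 against -0.04. They were *C3* (-1.14, -1.19 to -1.09), *C4b* (-1.20, -1.26 to -1.14) and *Cfb* (-1.18, -1.40 to -0.97), each lower in Palo. Weighted by Matrigel-only subset shares they were -0.58, -0.64 and -0.69, and 0 of 9 remained past 2-fold.

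Across stromal cells *C3* and *C4b* were found in the same cells. Their r in cells thinned to 3100 UMIs was 0.58 in Matrigel-only, 0.73 for Vehicle and 0.60 for Palo, over 1878, 1303 and 1130 cells of 1 library each. In macrophages their r was 0.01, -0.04 and 0.04. Outside the 9 members, the 5 genes that followed *C3* most closely were *Serping1* (r of 0.54 to 0.61), *Lbp* (0.47 to 0.51), *Gsn* (0.46 to 0.57), *C1s1* (0.44 to 0.68) and *Serpina3n* (0.40 to 0.48), and the same 5 followed *C4b* most closely, with r of 0.37 to 0.66. *Serping1* encodes C1 inhibitor and *C1s1* a C1s protease. *Gapdh*, *Tpm2* and *Pgk1* were among the 5 lowest for both, with r of -0.38 to -0.25. In each library the median r over 1515 genes was -0.02 or -0.03.

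The wider pathway was described by 46 other complement genes. Of these, 31 were tested between the classes, 9 being higher in macrophages, 15 higher in stromal cells and 7 not passing, beside the background of 60.3% of genes called. The proteases that act with C1q were stromal: *C1ra* differed by -3.03, *C1s1* by -6.40 and *C1s2* by -7.41 on the log2 scale, macrophage over stromal (edgeR adjusted p = 0.00276, 0.000361 and 0.00031). C1 inhibitor, *Serping1*, was stromal as well (-7.08, edgeR adjusted p = 0.000562), as was the convertase inhibitor *Cd55* (-4.29, edgeR adjusted p = 0.00575). So C1q and its partner proteases were read mainly in different cell classes. On the macrophage side were ficolin-A, *Fcna* (5.30, edgeR adjusted p = 0.000259), and the integrin chains of complement receptors 3 and 4, *Itgam*, *Itgax* and *Itgb2* (5.19 to 5.37). *Cd93* was higher in macrophages (5.64), the scavenger collectin *Colec12* (-1.02, edgeR adjusted p = 0.0421) and the endocytic receptor *Lrp1* (-0.98, edgeR adjusted p = 0.0238) were higher in stromal cells, and *Cr1l*, the convertase inhibitor Crry, and *Calr*, calreticulin, did not pass (edgeR adjusted p = 0.0887 and 0.0625).

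**Figure D5:**
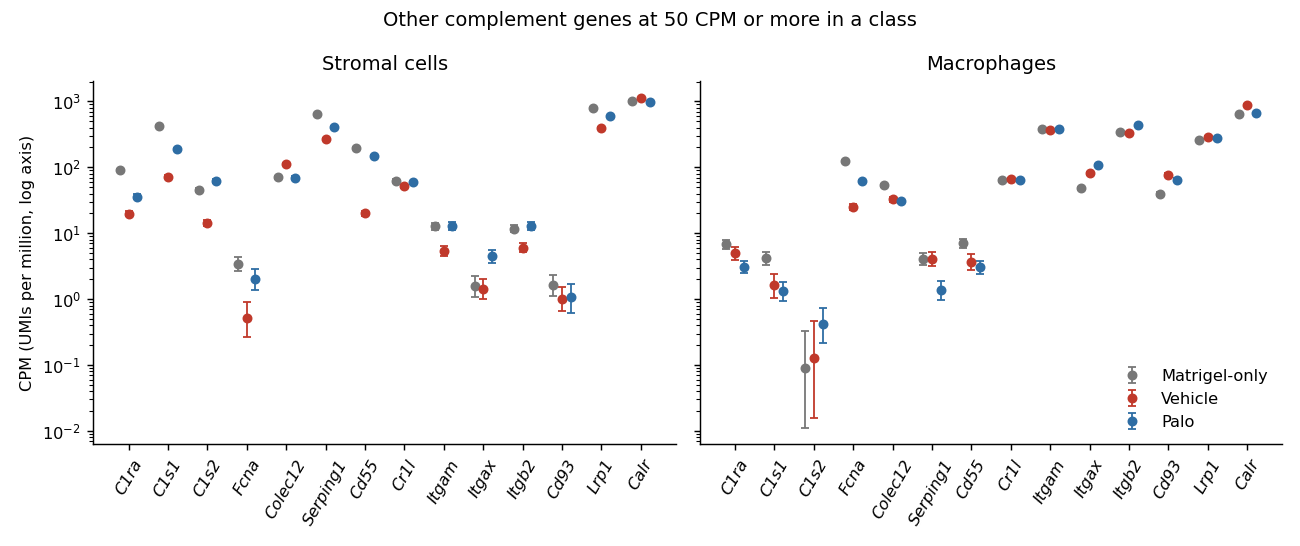
CPM (log axis) of other complement genes that reached 50 CPM in a class, by library, with Poisson 95% intervals. *C1s1*, *Serping1* and *Cd55* are stromal and lowest in Vehicle, and *Fcna* is highest in macrophages of Matrigel-only.

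In stromal cells 10 of 18 other complement genes tested were at least 2-fold lower in Vehicle than in Matrigel-only and 0 higher, with a background of 10.8% lower, and their median was -1.10 against -0.04. Against Palo, 7 of 18 were lower in Vehicle (background 7.63%) and 3 higher (background 5.78%), with a median of -0.74 against -0.01. The 3 were *Masp1* (16.8 against 6.82 CPM), *Cd59a* (32.6 against 13.5 CPM) and *Csmd1* (6.32 against 2.59 CPM). *Itgam* was among the 10 lower than in Matrigel-only, and *Itgam* and *Itgb2* among the 7 lower than in Palo. Their stromal levels were 5.43 to 13 CPM over the libraries, against 336 to 435 CPM in macrophages. The 12 macrophage markers were lower in Vehicle stromal cells too, with median log2 ratios of -1.07 and -0.89. *C1s1* was at 426 CPM in Matrigel-only, 71.8 CPM in Vehicle and 192 CPM in Palo. *Serping1* was at 643, 268 and 415 CPM, *Cd55* at 197, 20.1 and 149 CPM, and *C1ra* at 91.6, 19.8 and 35.9 CPM. *C1s2* was at 45.5, 14.3 and 62.5 CPM, the 1 named protease with its highest value in Palo. Each of them was lowest in Vehicle, as *C3*, *C4b* and *Cfb* were in stromal cells.

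Stromal *Lrp1*, at 807, 402 and 597 CPM in Matrigel-only, Vehicle and Palo, was 2.01-fold lower in Vehicle than in Matrigel-only and so just inside that count. *Cr1l* and *Calr*, which did not pass between the classes, differed by less in stromal cells, at 61.9, 51.5 and 58.9 CPM and at 1032, 1131 and 972 CPM. *Colec12* was highest in Vehicle, at 70.5, 111 and 70 CPM. In macrophages 5 of 17 were at least 2-fold lower in Vehicle than in Matrigel-only, with a background of 2.58% lower, and 0 higher. Among them were *C2*, *C6* and *Vsig4*, at low levels, and *Fcna*. *Fcna* was at 125, 24.9 and 62.3 CPM, lowest in Vehicle. The integrin chains *Itgam* (375, 374 and 388 CPM) and *Itgb2* (338, 336 and 435 CPM) differed little between Matrigel-only and Vehicle. *Itgax* was at 47.8, 81.6 and 110 CPM and *Cd93* at 39.5, 77.4 and 65 CPM, both lowest in Matrigel-only, like *C3ar1*. *Lrp1* in macrophages was at 258, 286 and 282 CPM, *Calr* at 634, 891 and 668 CPM, *Colec12* at 53.6, 32.6 and 30.6 CPM and *Cr1l* at 63.5, 65.4 and 63.5 CPM.

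The terminal components, which follow C5 cleavage, were scarce. Of the 7 listed, 0 in stromal cells and 1 in macrophages reached 5 CPM, and none reached 50 CPM. The 1 gene was *C6*, at 14.3 CPM in Matrigel-only macrophages, 4.93 CPM in Vehicle and 3.64 CPM in Palo. *Hc*, which encodes C5, had 6 UMIs in stromal cells and 1 UMI in macrophages of Matrigel-only and 0 in both classes of the rhBMP2 libraries, where a limit of 3 UMIs per class and library, used for a count of 0, comes to 0.105 to 0.195 CPM. *Cfd*, factor D, which cleaves factor B, had 1 to 15 UMIs per class and library.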

How the data were processed

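The authors aligned and counted reads with Cell Ranger 3.0.2 on mm10 and deposited, per the labels, 1 filtered matrix of raw counts (UMIs) of 31053 genes per library, with no normalization. Seurat 3 is also named in the submitters' processing notes. Of 3 libraries, barcodes with 200 to 6000 genes and at most 5% mitochondrial UMIs were kept. No doublet caller was run, and mixed cells were instead left out as an alternative. CPM is summed UMIs of a gene over those of the class, with exact Poisson intervals, shares have exact binomial intervals, and ratios conditional binomial intervals, all at 95% and for counting error only. Correlations used cells thinned to 3100 UMIs (stromal cells) or 1200 UMIs (macrophages). Shares of cells with a UMI were thinned only where a depth is stated beside them, and otherwise used all UMIs of a cell. A ratio of at least 2-fold was called where either library reached 5 CPM, with no test, as each condition is 1 library. The classes were tested with edgeR 4.0.16 (filterByExpr, TMM, library block) and DESeq2 1.42.0 in R 4.3.3. edgeR's test gives no SE, so the SE printed is the absolute log2 difference divided by the square root of the quasi-likelihood F. Python 3.11.15 was used for the rest. The class test, the fold counts and the correlations were tested on simulated data.

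The 9 members, the other complement genes and the marker lists were chosen with earlier results of these data known. Named beside the members were other complement genes of at least 50 CPM in a class (1 of them is counted but not reported here), and the 5 highest and 5 lowest genes by their weakest r over the 3 libraries among genes of at least 100 CPM. Where a count was 5 or fewer, genes were also named after their values were seen. The classes, sets and subsets are defined where they first appear. Alternatives were another cell filter or none, stromal limits of 0.5% and 2%, both macrophage genes required, mixed cells or other leukocytes left out, TMM factors, means over cells, no minimum CPM, another tool, no filter on low counts, no block and each library left out.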

Additional observations from a re-analysis of the deposited data

Results flagged for a closer look

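The log2 ratios of 4 gene and library pairs had opposite signs in macrophages and in stromal cells, with both counting intervals clear of 0. The gap, macrophage ratio minus stromal ratio, was 3.99 for *C3* in Vehicle over Matrigel-only and 2.92 for *C3* in Vehicle over Palo. It was 1.41 for *C3ar1* in Vehicle over Matrigel-only and 0.46 for *C1qa* in Palo over Matrigel-only. Both of these genes stood in stromal cells at 4.06% or less of their macrophage level. With 1 library per condition the difference between the classes was not tested.

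Cells that met neither class rule (206 in Matrigel-only, 524 for Vehicle and 131 for Palo) were compared with the classes only for *C3* or where they met the lymphocyte rule. *C3ar1* was at 45.3 CPM in those of Vehicle, above the 14.5 CPM in those of Matrigel-only. Each group is 1 library, so no sample was compared with others of its group.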

How the results depend on the processing

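Counts of members past 2-fold were within 1.5 times the reported count under the alternatives run, except that Vehicle over Palo in stromal cells fell to 1 without the mixed cells. With stromal subsets weighted by the Matrigel-only shares, chosen after seeing the data, stromal counts were 5 for Vehicle over Matrigel-only and 0 for Palo over Matrigel-only. How far subset shares entered the reported ratios was not tested, as each condition is 1 library. With these weights the ratios of Vehicle over Matrigel-only turned to 0.35 for *C3* and 0.05 for *C4b*. Those of Vehicle over Palo, under 2-fold as reported, turned too, from -0.48 to 0.93 for *C3*, from -0.52 to 0.70 for *C4b* and from -0.77 to 0.51 for *Cfb*. Members called between the classes numbered 6 to 9 with 1 library left out, and the class difference of *C4b* turned to -0.09 without Palo and passed the threshold without Vehicle (0.78). Under the other alternatives 347 recomputed ratios between conditions stayed within the counting interval of the reported ratio and 139 lay outside it, and no ratio past 2-fold turned among these. All 54 unthinned shares lay outside the counting interval of the thinned share. No paired analysis was possible because each condition is 1 library. Depth limits the stromal values of *C5ar1* (20 UMIs in Vehicle), and macrophages had fewer UMIs per cell than stromal cells, so shares of cells are not compared between the classes except at 1200 UMIs.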

Other observations

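Barcodes outside the cell filter held members' UMIs too. Vehicle held 7906 *C3* UMIs in all its barcodes and 6912 in those that passed, against 14114 and 13664 in Matrigel-only and 5598 and 5333 in Palo. For *C4b* the counts were 5249 and 4540 in Vehicle, 19420 and 18574 in Matrigel-only and 15299 and 14464 in Palo.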
